A study of Homo sapiens with 18 samples.

Results

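The genes described here are 34 that encode chaperones and folding enzymes of the endoplasmic reticulum (ER), the sensors and factors of the unfolded protein response, and parts of ER-associated degradation, translocation and collagen folding. They were chosen by symbol, as a list drawn up with earlier results of these data known, and the rule itself uses no measured value. All 34 are listed in each of the 3 deposited gene tables, among 15543 genes for the SW480-LM3 comparison, 31585 for LX-2 cells and 32555 for LV5 cells. The study sequenced poly(A) RNA of 18 human cell culture libraries in 6 groups of 3. SW480-P is the parental culture of SW480, an established colon cancer line. SW480-LM3 is described by the submitters as derived from it by 3 rounds of selection for metastasis after injection into the spleen. EV-XP-NID1-LX-2 are LX-2 cells, a human hepatic stellate cell line, incubated for 48 h with extracellular vesicles containing nidogen 1 (NID1), and EV-XP-LX-2 are their controls. The labels leave XP undefined. LV5-NID1 are SW480 cells that overexpress NID1, labelled as treated for 72 h with GW4869, an inhibitor of neutral sphingomyelinase used to block vesicle release. LV5 are their controls, and the labels do not say whether LV5 cells also received GW4869, so NID1 and the drug cannot be told apart there. Whether replicates were separate cultures is not stated, so p-values reflect how far these libraries spread, and that spread may be technical.

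Secreted and membrane proteins enter the ER through the Sec61 translocon and fold there with help from the Hsp70 protein BiP (HSPA5), the Hsp90 protein GRP94 (HSP90B1), the lectin chaperones calnexin and calreticulin, and disulfide isomerases. When unfolded proteins build up, the sensors IRE1 (ERN1), PERK (EIF2AK3) and ATF6 are activated: IRE1 splices the XBP1 mRNA, PERK phosphorylates eIF2alpha and so raises ATF4 translation, and ATF6 is cut in the Golgi to release a transcription factor. Their targets include chaperones and the machinery that sends misfolded proteins to the proteasome. The sensors act through protein activation and splicing, which gene-level RNA values do not show.

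ATF6 and XBP1 act through short promoter elements, and the matches are shown because the first element is, of those searched, the one found in the largest number of the listed genes. RefSeq (GRCh38.p14) promoter windows of 300 bases run from 250 before to 50 after an annotated start. They were found for 31 of the 34 genes, with 39 windows in total, and not for DERL1, DERL3 and PDIA3. The ER stress element (ERSE) was searched on both strands as CCAAT, any 9 bases, then CCACG. It occurs in 27 of 35116 RefSeq windows (0.0769%) and in windows of 7 of the listed genes. The matches follow with 5 flanking bases on each side, 5′ to 3′ on the strand named, with the fixed bases of the element in capitals.
HSPA5 (chr9:125241386-125241414, minus strand): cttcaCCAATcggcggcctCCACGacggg
HSP90B1, first match (chr12:103930211-103930239, plus strand): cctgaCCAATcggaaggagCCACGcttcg
HSP90B1, second match (chr12:103930316-103930344, minus strand): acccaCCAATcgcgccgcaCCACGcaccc
CALR (chr19:12938379-12938407, minus strand): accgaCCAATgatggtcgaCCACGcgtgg
CANX (chr5:179698773-179698801, plus strand): cccggCCAATcttcacactCCACGaagaa
PDIA6 (chr2:10812848-10812876, minus strand): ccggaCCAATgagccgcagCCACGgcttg
CRELD2 (chr22:49918549-49918577, minus strand): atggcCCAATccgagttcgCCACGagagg
XBP1 (chr22:28800598-28800626, minus strand): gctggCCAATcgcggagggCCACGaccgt
All 8 lie upstream of the annotated start used for their window, between 43 bases (XBP1) and 216 bases (CALR) from it. The matches of CANX, PDIA6, HSP90B1 and CRELD2 lie within the gene bounds of GENCODE 29, which begin further upstream. Of 75 further ER genes with a window, taken from the list of other pathway genes described below, 1 (ERO1B) holds the element.

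The related element ERSE-II was searched as ATTGG, any 1 base, then CCACG. It occurs in 0.0541% of the windows and in those of HERPUD1, HYOU1 and SDF2L1, shown in the same form.
HERPUD1 (chr16:56932020-56932040, plus strand): cgccgATTGGgCCACGttggg
HYOU1, first match (chr11:119057269-119057289, plus strand): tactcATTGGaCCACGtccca
HYOU1, second match (chr11:119057375-119057395, plus strand): ctgggATTGGaCCACGtcacg
SDF2L1 (chr22:21642109-21642129, minus strand): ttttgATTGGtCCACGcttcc
The XBP1-binding core TGACGTGG occurs in 0.729% of windows and in those of DNAJC10, HYOU1 and TXNDC5, 3 of the 31 listed genes with a window, and in 7 of the 75 further ER genes with one. In HYOU1 it overlaps the second ERSE-II match on the other strand. The amino acid response element TGATGCAA, which ATF4 binds, occurs in 0.866% of windows and, among the listed genes, in that of HERPUD1. A match is a description of the letters in a window, not a measured binding site.

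The SW480-LM3 table gives a CPM-like signal of unstated unit, whose steps are whole reads divided by 1 factor per library and which does not correct for gene length. Column totals were not equal between the groups, at 1102964 to 1104681 in SW480-P but 899507 to 908688 in SW480-LM3. The depth was 15504205 to 18965163 reads recovered per library from the whole-read steps of the values. The LX-2 and LV5 tables give TPM, a transcript level per length, of unknown depth. NID1 followed the overexpression label, with a mean of 0.02 TPM in LV5 and 359.9 TPM in LV5-NID1. Its mean signal was 0.501 in SW480-P and 46.9 in SW480-LM3, whose labels name no change to NID1. In LX-2 cells NID1 was 25.4 ± 0.5 TPM in the controls and 20.8 ± 2.44 TPM in cells given NID1 vesicles (SD, n = 3). Summed colon epithelium markers (7 of 7 listed) were 3522.1 to 3789.5 in SW480-P against 13174.5 to 13886.9 in SW480-LM3 in CPM-like signal, with CDH1 at 1.67 and 148.4 and VIL1 at 10.1 and 384.3 in the same order. Whether the SW480-P and SW480-LM3 cultures share an origin was not tested. The same markers summed to 1630.7 to 1671.0 TPM in LV5 against 926.7 to 987.6 TPM in LV5-NID1. That sum was mostly KRT8, which went from 779.9 to 410.7 TPM, and KRT18, from 860.7 to 545.6 TPM. EPCAM rose from 5.03 to 9.05 TPM, while the other markers of the list had lower means. In LV5 cells the epithelial genes CDH1, VIL1 and CDX2 averaged 0.623, 0.187 and 0.177 TPM, while KRT8 averaged 779.9 TPM. Summed stellate and mesenchymal markers (8 of 8 listed) were 2545.7 to 2717.2 TPM in EV-XP-LX-2 against 1754.2 to 2086.0 TPM in EV-XP-NID1-LX-2. Most of that sum was VIM, at 1886.8 and 1341.1 TPM. TAGLN rose from 286.3 to 300.0 TPM, while the other markers of that list had lower means. In the EV-XP-LX-2 controls the epithelial markers EPCAM, KRT8 and KRT18 were at 0.0867, 54.8 and 198.7 TPM. The leukocyte markers PTPRC and CD68 were at 0.0367 and 43.7 TPM there. The part of these marker shifts in the results below was not tested, and in bulk RNA fewer cells of a type and less RNA per cell cannot be told apart. LV5-NID1 replicate 3 stood apart: for genes with a transcript GC content of 60% or more, the median deviation from the group mean on the log2 scale was -0.44 in it, against 0.30 and 0.16 in replicates 1 and 2. Results that rest on that library are given with and without it.

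Per length, transcripts of the folding proteins were the most abundant of the 34, and those of the sensors ERN1 and EIF2AK3 were among the least abundant. In EV-XP-LX-2 cells CALR led with 480.6 ± 15.6 TPM, followed by CANX at 444.2 ± 1.23 and HSP90B1 at 413.9 ± 7.07 TPM (SD, n = 3). SEC61B (403.1 ± 15.7), P4HB (396.1 ± 9.94), PDIA3 (377.2 ± 11.7) and PPIB (373.7 ± 3.81 TPM) came next. From HSP90B1 to SEC61B and P4HB the gap between neighbours was within their SDs, so their order is not resolved. At the low end EIF2AK3 was at 18.4 ± 0.226, ERN1 at 17.0 ± 0.448 and ATF6 at 14.4 ± 0.239 TPM, each step being larger than the SDs. DERL3, a derlin, was lowest at 1.21 ± 0.459 TPM.

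In LV5 cells HSP90B1 (408.7 ± 5.15), PPIB (407.4 ± 21.3), CANX (400.9 ± 25.6) and CALR (391.0 ± 13.2 TPM) led. Neighbours in that order did not differ beyond the larger of their SDs, while HSP90B1 lay above CALR in every library. P4HB followed at 369.2 ± 7.91 TPM. HSPA5 was at 253.1 ± 6.86 TPM and ATF6, rank 22 of 34, at 21.5 ± 0.707 TPM. The lowest were EIF2AK3 (9.52 ± 0.915), DERL3 (9.52 ± 0.156), CLGN (6.89 ± 0.831) and ERN1 (6.53 ± 0.286 TPM). Among the sensors and XBP1, XBP1 mRNA was the most abundant in both tables, at 139.9 ± 2.91 TPM in EV-XP-LX-2 and 122.3 ± 1.5 TPM in LV5. The tables were normalised separately, so levels are not compared across them.

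**Figure D1:**
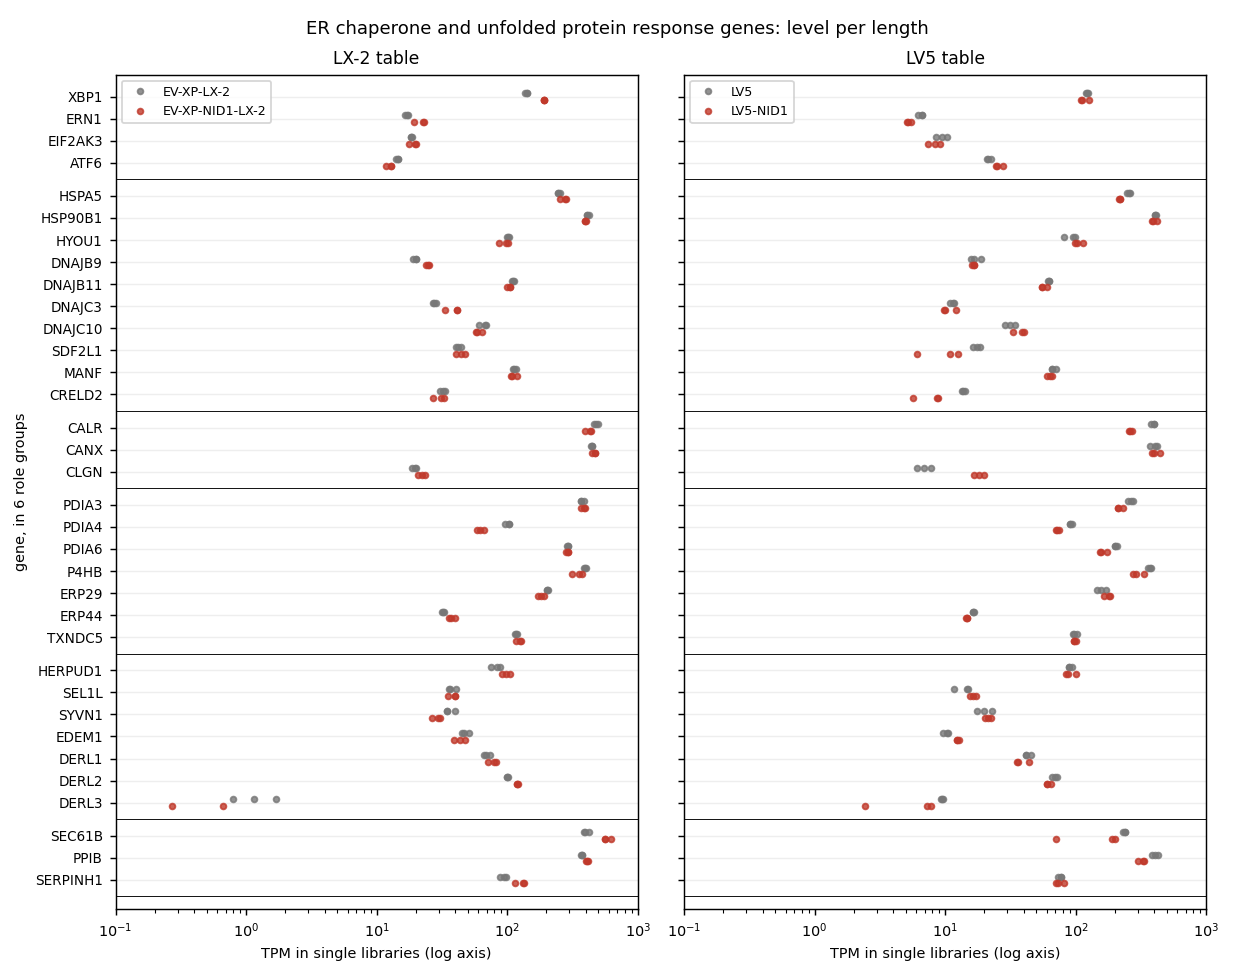
Level of each of the 34 genes in single libraries of the LX-2 table (left) and the LV5 table (right), in TPM on a log axis, with control libraries in grey and the other group in red; horizontal lines separate 6 role groups. The sensors ERN1, EIF2AK3 and ATF6 lie between 5.13 and 27.6 TPM, far to the left of HSP90B1 and CANX, and LV5-NID1 replicate 3 is the lowest red point for SEC61B, DERL3 and SDF2L1.

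SW480-LM3 was compared with SW480-P to describe cells selected for metastasis. In this comparison 12 of the 34 genes were higher in SW480-LM3 and 20 were lower (limma, adjusted p under 0.05 over all genes tested). ERP29 and SERPINH1 did not pass the test. Over all 14527 genes tested, 43.9% were called higher and 43.9% lower, so most genes tested were called. The median log2 difference of the listed genes was -0.34 against 0 for all genes, with a range from -2.03 to 2.04, and 11 of the called genes differed by more than 1 on the log2 scale. The split depends on scaling. It was 15 higher and 16 lower after quantile normalization (42.3% and 45.3% of all genes), with a median of -0.01 against -0.05 for all genes. With library-total scaling, which moved the median of all genes to 0.27, it was 16 higher and 17 lower (51.8% and 35.5% of all genes), with a median of -0.05.

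The 3 sensors went in different directions. ATF6, the sensor that becomes a transcription factor, had signals of 131.8, 138.7 and 143.4 in SW480-P and 32.9, 32.4 and 33.8 in SW480-LM3, where it was 4.18-fold lower (log2 -2.03 ± 0.05 SE, limma adjusted p = 2.38e-14). The groups were far apart, and this was the largest fall among the listed genes on the log2(value + 1) scale, while by the ratio of means the low gene DERL3 fell further (5.95-fold). ERN1, which encodes IRE1, gave 5.05, 4.49 and 7.05 in SW480-P and 15.1, 17.2 and 17.3 in SW480-LM3, a 2.99-fold higher level (log2 1.44 ± 0.14, limma adjusted p = 1.41e-07). EIF2AK3, which encodes PERK, moved from 15.6 to 15.9 in SW480-P to 21.1 to 23.0 in SW480-LM3 (log2 0.49 ± 0.08, limma adjusted p = 5.28e-05). XBP1, the substrate of IRE1, was 119.6 ± 0.76 in SW480-P and 106.5 ± 0.906 in SW480-LM3 (log2 -0.17 ± 0.04, limma adjusted p = 0.00103). That small fall turned to 0.12 with library-total scaling.

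In the Hsp70 and Hsp90 system 7 of 10 genes were lower and 3 higher. HSPA5, the central ER Hsp70, had 744.1, 749.2 and 784.0 in SW480-P against 539.2, 537.0 and 550.1 in SW480-LM3 (log2 -0.48 ± 0.03, limma adjusted p = 1.02e-09). HSP90B1 had 1257.9, 1317.6 and 1341.2 against 792.2, 755.4 and 776.5 (log2 -0.75 ± 0.03, limma adjusted p = 9.09e-12). For neither gene did the groups overlap, but after quantile normalization the log2 differences were 0.03 for HSPA5 and 0.10 for HSP90B1. HYOU1, a large Hsp70-like exchange factor for BiP, went the other way, with 97.1, 99.0 and 94.0 in SW480-P and 180.7, 185.5 and 183.0 in SW480-LM3 (1.89-fold, log2 0.91 ± 0.04, limma adjusted p = 1.09e-11). Among the J-domain partners of BiP, DNAJB9 (log2 -1.06 ± 0.1), DNAJC10 (-0.77 ± 0.05) and DNAJB11 (-0.63 ± 0.05) were lower. DNAJC3, another of these partners, was higher by log2 0.16 ± 0.06 with overlapping libraries, and it lost its call without SW480-P replicate 1 or 2 or SW480-LM3 replicate 1 or 2. SDF2L1 and MANF, small ER stress proteins, were lower by log2 -0.91 ± 0.07 and -0.50 ± 0.04. CRELD2 was higher by 0.47 ± 0.08, which became -0.08 once a trend on GC content was removed.

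All 3 lectin chaperones, which hold glycoproteins during folding, were lower. CANX had 1606.4, 1643.7 and 1703.0 in SW480-P and 776.9, 760.8 and 757.0 in SW480-LM3, 2.16-fold lower (log2 -1.11 ± 0.03, limma adjusted p = 4.94e-14). CLGN, a calnexin relative best known from testis, had 5.55, 4.83 and 4.65 against 0.989, 1.7 and 1.14 (log2 -1.41 ± 0.15, limma adjusted p = 4.57e-07). Both fell in every library of SW480-LM3. CALR was 652.0 ± 11.3 against 595.6 ± 10.4 (log2 -0.13 ± 0.03, limma adjusted p = 0.000784), and its sign turned to 0.38 after quantile normalization and 0.16 with library-total scaling.

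The disulfide isomerases and thioredoxin-fold proteins split evenly, with 3 higher, 3 lower and ERP29 not called. P4HB, the isomerase that is also the beta subunit of prolyl 4-hydroxylase, had 317.4, 317.3 and 301.4 in SW480-P and 774.0, 822.2 and 794.1 in SW480-LM3 (2.55-fold, log2 1.35 ± 0.03, limma adjusted p = 2.74e-14). PDIA4 went from 185.4 ± 4.84 to 368.0 ± 10.1 (1.99-fold) and PDIA3, the partner of the lectin chaperones, from 334.3 ± 4.12 to 473.2 ± 4.44 (1.42-fold). PDIA6 fell, with 415.3, 420.4 and 442.1 in SW480-P and 187.7, 180.8 and 181.8 in SW480-LM3 (2.32-fold lower, log2 -1.21 ± 0.04, limma adjusted p = 1.46e-13). The groups were separate for all of these. ERP44, which retains proteins in the early secretory pathway, and TXNDC5 were lower by log2 -0.76 ± 0.04 and -0.79 ± 0.03. ERP29 had 107.4 ± 3.87 and 113.1 ± 3.56 with overlapping libraries (log2 0.07 ± 0.04, limma adjusted p = 0.127).

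**Figure D2:**
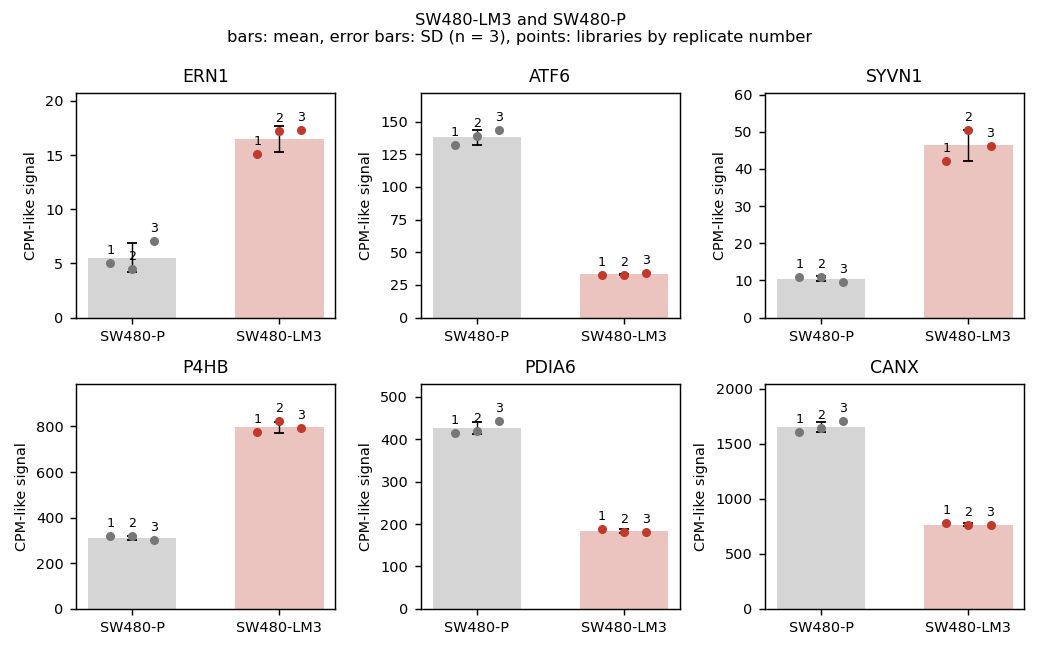
CPM-like signal of ERN1, ATF6, SYVN1, P4HB, PDIA6 and CANX in SW480-P (grey) and SW480-LM3 (red); bars are means of 3 libraries, error bars SD, and points single libraries with their replicate number. ERN1, SYVN1 and P4HB are higher in all 3 SW480-LM3 libraries and ATF6, PDIA6 and CANX lower in all 3.

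In ER-associated degradation 4 of 7 genes were higher and 3 lower. SYVN1, the ubiquitin ligase HRD1, had the largest rise of the listed genes, from 10.9, 11.0 and 9.59 in SW480-P to 42.2, 50.4 and 46.2 in SW480-LM3 (4.42-fold, log2 2.04 ± 0.09, limma adjusted p = 1.2e-11). Its adaptor SEL1L went from 86.9 ± 7.34 to 96.6 ± 4.96 (log2 0.15 ± 0.06), with overlapping libraries, and lost its call without SW480-P replicate 1 or 2 or SW480-LM3 replicate 1 or 3. EDEM1, which marks misfolded glycoproteins for removal, rose from 29.0 ± 1.85 to 50.0 ± 1.85 (log2 0.77 ± 0.07, limma adjusted p = 3.9e-08), and HERPUD1, a scaffold of the HRD1 complex, from 44.7 ± 2.03 to 54.5 ± 2.8 (log2 0.28 ± 0.06, limma adjusted p = 0.000485). The derlins, channel-like partners of the complex, were lower: DERL3 had 4.91, 5.24 and 3.24 against 0.465, 0.702 and 1.08 (log2 -1.64 ± 0.18, limma adjusted p = 6.22e-07), and DERL2 went from 73.5 ± 3.5 to 44.0 ± 3.27. DERL1 was lower by log2 -0.19 ± 0.05, which became 0.09 with library-total scaling. SEC61B, the beta subunit of the translocon, had 155.7, 145.9 and 148.2 against 50.4, 52.2 and 47.8 (2.99-fold lower, log2 -1.56 ± 0.05, limma adjusted p = 2.86e-13). PPIB, a prolyl isomerase that acts on collagen, was 625.2 ± 17.3 against 309.0 ± 10.1, and the collagen chaperone SERPINH1 was not called at 106.6 ± 7.14 and 107.7 ± 3.75 (log2 0.02 ± 0.05, limma adjusted p = 0.778). SERPINH1 was called higher with library-total scaling and lower once a trend on GC content was removed (log2 -0.61).

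Other genes of the pathway, a list of 87 with 84 tested here, gave 29 higher (34.5%) and 50 lower (59.5%) calls, with a median of -0.44. Over all genes tested, 43.9% were called higher and 43.9% lower, with a median of 0. Of the translocon, signal peptide and N-glycosylation genes 19 of 22 were lower and 3 higher, including TUSC3, an oligosaccharyltransferase subunit, from 45.8 ± 2.46 to 0.115 ± 0.102. SPCS3, a signal peptidase subunit, was higher (log2 0.81 ± 0.04, limma adjusted p = 3.81e-11). The PERK and ATF4 branch had 7 of 10 higher and 2 lower: CHAC1, a glutathione-degrading enzyme induced by ATF4, went from 0.586 ± 0.425 to 12.3 ± 1.46 and the stress gene NUPR1 from 13.2 ± 1.03 to 0.222 ± 0.217. Among 24 disulfide and folding factors 7 were higher and 16 lower. PRKCSH, the beta subunit of glucosidase II, rose from 50.6 ± 2.04 to 267.0 ± 5.78 and the retrieval receptor gene KDELR2 fell from 415.4 ± 17.5 to 108.4 ± 3.59. Among 28 genes of degradation and sensor processing 12 were higher and 13 lower, with WFS1 rising from 15.7 ± 1.05 to 191.9 ± 8.22 and SELENOS, listed under the older symbol VIMP, falling from 64.5 ± 2.67 to 31.2 ± 1.58.

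LX-2 cells were given vesicles with or without NID1 to see how stellate cells respond. Here 10 of the 33 genes tested were higher with NID1 vesicles, 4 were lower and 19 did not pass the test, and no log2 difference was beyond -0.69 to 0.53. Over all 15802 genes tested, 17.8% were called higher and 24.6% lower. The median of the listed genes was 0.05 and that of all genes -0.05. DERL3 was too low for the test, with 0.79, 1.70 and 1.14 TPM in EV-XP-LX-2 and 0.27, 0.07 and 0.67 TPM in EV-XP-NID1-LX-2. The split again depends on scaling: it was 11 higher and 8 lower after quantile normalization (23.5% and 22.7% of all genes), 8 and 7 without the mitochondrially encoded genes (15.5% and 27.4%), and 14 and 3 with median-ratio scaling (24.4% and 23.2%).

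XBP1 and the sensor ERN1 were called higher, while the sensors EIF2AK3 and ATF6 were not called in the main test. XBP1 had 141.6, 136.5 and 141.5 TPM in EV-XP-LX-2 and 192.3, 190.2 and 190.8 TPM in EV-XP-NID1-LX-2 (1.37-fold, log2 0.45 ± 0.04, limma adjusted p = 0.000379). ERN1 had 16.5, 17.1 and 17.3 against 23.0, 19.5 and 22.7 TPM (1.28-fold, log2 0.34 ± 0.08, limma adjusted p = 0.0123). For both, all libraries with NID1 vesicles lay above all controls. EIF2AK3 was at 18.4 ± 0.226 and 19.1 ± 1.2 TPM and was called higher after quantile normalization. ATF6 was at 14.4 ± 0.239 and 12.6 ± 0.634 TPM without overlap (log2 -0.19 ± 0.07, limma adjusted p = 0.0583). It was called lower with no variance trend, with the GC trend removed and without the mitochondrially encoded genes.

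Of the Hsp70 and Hsp90 system 2 of 10 genes (20.0%) were called higher, beside 17.8% of all genes tested. Both encode J-domain proteins, as do DNAJB11 (log2 -0.1) and DNAJC10 (log2 -0.13), which were not called. DNAJC3, also called p58IPK, had 27.1, 28.7 and 27.5 against 41.3, 33.4 and 41.2 TPM (1.39-fold, log2 0.46 ± 0.09, limma adjusted p = 0.00602). DNAJB9, which represses IRE1 together with BiP, had 20.2, 20.2 and 19.1 against 23.9, 25.0 and 24.6 TPM (log2 0.29 ± 0.06, limma adjusted p = 0.00616). HSPA5 and HSP90B1, the main chaperones, were not called in the main test, though the groups were separate for both. HSPA5 was at 247.2 ± 5.96 and 272.3 ± 14.7 TPM (log2 0.14 ± 0.05, limma adjusted p = 0.066). It was called higher with median-ratio scaling, with the GC trend removed, and when replicate 2 of the cells given NID1 vesicles was left out. HSP90B1 was at 413.9 ± 7.07 and 396.8 ± 4.38 TPM and was called lower after quantile normalization. HYOU1, DNAJB11, DNAJC10, SDF2L1, MANF and CRELD2 had log2 differences between -0.13 and 0.06.

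PDIA4 had the largest log2 difference of the 33 listed genes tested in LX-2 cells. This disulfide isomerase had 103.0, 96.6 and 103.3 TPM in EV-XP-LX-2 and 66.1, 58.8 and 61.9 TPM in EV-XP-NID1-LX-2 (1.62-fold lower, log2 -0.69 ± 0.06, limma adjusted p = 0.000338). ERP29 fell from 203.8 ± 3.47 to 182.4 ± 9.57 TPM (limma adjusted p = 0.0356) and ERP44 rose from 32.1 ± 0.539 to 37.7 ± 2.1 TPM (limma adjusted p = 0.0184). PDIA3, PDIA6, P4HB and TXNDC5 were not called, and P4HB was at 396.1 ± 9.94 and 349.9 ± 29.5 TPM (limma adjusted p = 0.0602). Of the lectins CALR was lower, with 467.3, 476.8 and 497.7 against 439.2, 393.1 and 428.3 TPM (log2 -0.19 ± 0.05, limma adjusted p = 0.0248), while CANX (log2 0.06 ± 0.04) and CLGN (log2 0.17 ± 0.07) were not called.

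The translocon and collagen genes were all 3 higher in EV-XP-NID1-LX-2. SEC61B had 420.7, 397.7 and 390.8 TPM in the controls and 566.0, 621.6 and 565.3 TPM with NID1 vesicles (1.45-fold, log2 0.53 ± 0.05, limma adjusted p = 0.000588). SERPINH1, which encodes the collagen chaperone HSP47, had 87.5, 98.1 and 95.4 against 134.2, 114.5 and 131.3 TPM (1.35-fold, log2 0.43 ± 0.07, limma adjusted p = 0.00381). Neither pair of groups overlapped. PPIB was at 373.7 ± 3.81 and 408.7 ± 9.26 TPM (log2 0.13 ± 0.04, limma adjusted p = 0.0331), a difference that became -0.02 after quantile normalization. In degradation, DERL2 rose from 100.9 ± 0.843 to 120.5 ± 1.62 TPM (log2 0.25 ± 0.04, limma adjusted p = 0.00245) and HERPUD1 from 82.5 ± 6.31 to 98.3 ± 6.89 TPM (log2 0.25 ± 0.07, limma adjusted p = 0.0313). SYVN1 fell from 36.5 ± 3.15 to 28.8 ± 2.11 TPM (log2 -0.33 ± 0.08, limma adjusted p = 0.0161). SEL1L, EDEM1 and DERL1 were not called.

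Of the 14 calls in LX-2 cells, 8 held in the same direction under every alternative run: XBP1, ERN1, DNAJB9, DNAJC3, DERL2, SEC61B and SERPINH1 higher and PDIA4 lower. CALR, ERP29, ERP44, HERPUD1, PPIB and SYVN1 lost their call without at least 1 of EV-XP-LX-2 replicates 1, 2 and 3, as did ERP29, ERP44, HERPUD1 and PPIB without EV-XP-NID1-LX-2 replicate 3, and HERPUD1 and PPIB without replicate 1. Without EV-XP-NID1-LX-2 replicate 2, which lay nearest the controls for ERN1, DNAJC3 and SERPINH1, 14 genes were higher and 5 lower, when 22% of all genes were called higher and 23.1% lower.

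Of the 87 other pathway genes, 85 were tested in LX-2 cells, with 28 higher (32.9%), 17 lower (20.0%) and a median of 0.04. Over all genes tested, 17.8% were called higher and 24.6% lower, with a median of -0.05. The translocon, signal peptide and N-glycosylation genes gave 10 higher and 0 lower of 22, among them SEC61G, the gamma subunit of the translocon, from 461.5 ± 36.0 to 774.5 ± 120.8 TPM. By limma, 0 genes of that list were lower at an unadjusted p under 0.05 as well. In the PERK and ATF4 branch 6 of 10 were higher and 2 lower. EIF2S1, which encodes the PERK substrate eIF2alpha, rose from 262.8 ± 20.9 to 419.3 ± 34.7 TPM and TRIB3, a pseudokinase induced by ATF4, fell from 111.8 ± 4.56 to 69.8 ± 7.83 TPM. The disulfide and folding factors had 4 higher and 8 lower of 24, with FKBP14, an ER prolyl isomerase, at 9.36 ± 0.814 and 11.6 ± 0.582 TPM and KDELR3 at 35.7 ± 0.652 and 21.2 ± 0.815 TPM. Among 29 genes of degradation and sensor processing 8 were higher and 7 lower. MBTPS1, the site-1 protease that cuts ATF6, fell from 67.7 ± 2.04 to 37.5 ± 5.09 TPM and BCL2L11 rose from 11.6 ± 1.55 to 16.7 ± 0.878 TPM.

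**Figure D3:**
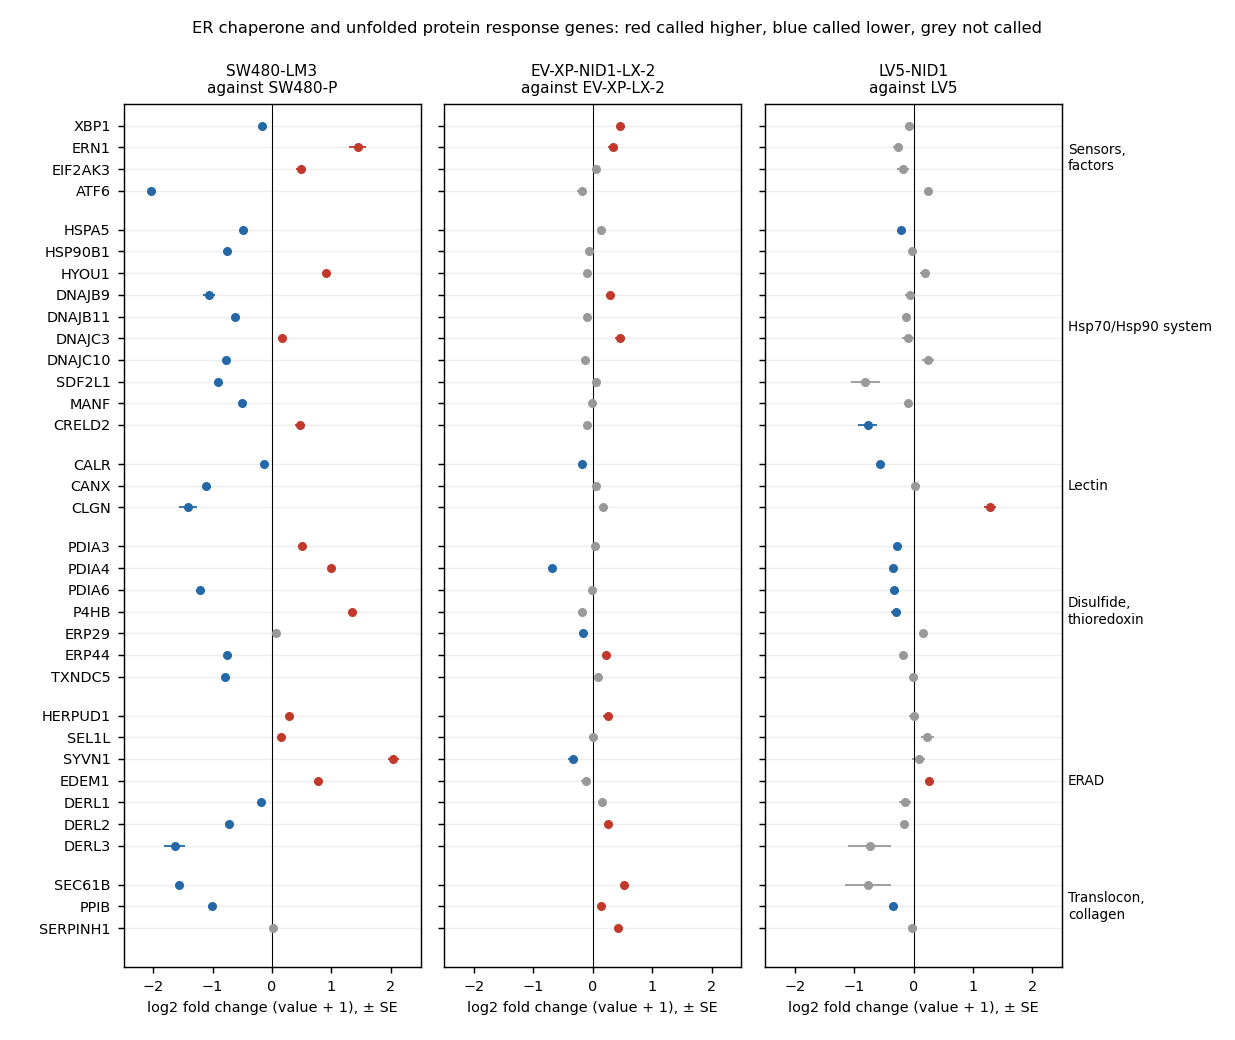
Difference of the 34 genes in the 3 comparisons as log2 of the value plus 1, with SE; red points were called higher, blue lower (limma adjusted p under 0.05) and grey not called, and DERL3 has no point in LX-2 cells because it was not tested. Differences span -2.03 to 2.04 in SW480-LM3, -0.69 to 0.53 in LX-2 cells and -0.81 to 1.29 in LV5-NID1.

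LV5-NID1 was compared with LV5 to look at the vesicle pathway and the transition towards a mesenchymal state. Here 2 of the 34 genes were higher, CLGN and EDEM1, and 8 were lower, while 24 did not pass the test. Over all 15508 genes tested, 7.27% were called higher and 9.32% lower. The median of the listed genes was -0.11 and that of all genes 0.01. The lower genes were the folding enzymes and chaperones HSPA5, CALR, PDIA3, PDIA4, PDIA6, P4HB, PPIB and CRELD2, of which 4 belong to the 7 disulfide isomerases and thioredoxin-fold proteins. The split was 2 higher and 4 lower after quantile normalization (8.28% and 6.84% of all genes). It was 3 higher and 11 lower once a trend on GC content was removed (10.1% and 12.7% of all genes). As a share of all TPM, the 34 genes made up 0.407% to 0.414% in LV5 and 0.356% to 0.369% in LV5-NID1.

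CLGN had the largest difference, with 6.08, 7.74 and 6.86 TPM in LV5 and 16.8, 18.1 and 19.8 TPM in LV5-NID1 (2.65-fold, log2 1.29 ± 0.1, limma adjusted p = 0.00201). Its paralogue CANX was at 400.9 ± 25.6 and 410.1 ± 31.0 TPM with overlapping libraries (log2 0.03 ± 0.08). CALR, the soluble lectin, fell from 398.6, 398.6 and 375.8 TPM to 259.0, 258.4 and 270.6 TPM (1.49-fold lower, log2 -0.57 ± 0.05, limma adjusted p = 0.00202). For CLGN and CALR every LV5-NID1 library lay outside the range of LV5. At its mean of 391.0 TPM in LV5, CALR accounts for the largest loss in TPM among the listed genes that were called.

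Among the isomerases PDIA4 had 94.1, 91.0 and 90.7 TPM in LV5 and 72.0, 70.9 and 74.4 TPM in LV5-NID1 (1.27-fold lower, log2 -0.34 ± 0.05, limma adjusted p = 0.00844). PDIA6 had 200.8, 200.7 and 207.5 against 154.0, 155.6 and 174.9 TPM (log2 -0.33 ± 0.06, limma adjusted p = 0.0209), and PDIA3 had 254.1, 276.7 and 266.4 against 211.2, 212.5 and 231.3 TPM (log2 -0.28 ± 0.06, limma adjusted p = 0.0267). P4HB had 371.2, 375.9 and 360.5 against 288.6, 277.0 and 333.7 TPM (log2 -0.30 ± 0.08, limma adjusted p = 0.0455). For PDIA3, PDIA6 and P4HB the third LV5-NID1 library lay nearest to LV5. ERP29, ERP44 and TXNDC5 were not called, with log2 differences of 0.16 ± 0.07, -0.17 ± 0.05 and -0.01 ± 0.05.

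HSPA5 had 245.6, 259.0 and 254.9 TPM in LV5 and 219.2, 215.6 and 219.8 TPM in LV5-NID1 (1.16-fold lower, log2 -0.21 ± 0.04, limma adjusted p = 0.0245). The groups were separate, yet the call was lost when any 1 LV5 library, or LV5-NID1 replicate 1 or 2, was left out. HSP90B1 was at 408.7 ± 5.15 and 400.1 ± 19.0 TPM (log2 -0.03 ± 0.05, limma adjusted p = 0.675). CRELD2 had 13.4, 13.7 and 14.1 against 8.72, 8.90 and 5.68 TPM (1.77-fold lower, log2 -0.77 ± 0.16, limma adjusted p = 0.0274), and without LV5-NID1 replicate 3 the difference was -0.59. PPIB fell from 407.4 ± 21.3 to 320.5 ± 16.6 TPM (log2 -0.35 ± 0.06, limma adjusted p = 0.0188). By limma 0 of the 3 sensors and XBP1 were called in the main test, though ERN1 and ATF6 had an unadjusted p under 0.05. ERN1 was at 6.53 ± 0.286 and 5.26 ± 0.194 TPM (limma adjusted p = 0.0564). It was called lower with no variance trend, with the GC trend removed and with median-ratio scaling. ATF6 was at 21.5 ± 0.707 and 25.7 ± 1.71 TPM (limma adjusted p = 0.0591) and was called higher with the GC trend removed. EIF2AK3 was at 9.52 ± 0.915 and 8.28 ± 0.831 TPM and XBP1 at 122.3 ± 1.5 and 115.8 ± 8.68 TPM. In degradation EDEM1 rose from 9.57, 10.3 and 10.6 to 12.3, 12.3 and 12.7 TPM (log2 0.26 ± 0.07, limma adjusted p = 0.0463), and its call was lost when any 1 library was left out.

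LV5-NID1 replicate 3 decided several values. SEC61B had 240.4, 232.3 and 238.2 TPM in LV5 and 198.8, 190.0 and 70.6 TPM in LV5-NID1, so the log2 difference of -0.77 ± 0.39 (limma adjusted p = 0.22) became -0.28 without replicate 3 and then passed the test. SDF2L1 had 16.3, 17.5 and 18.5 against 12.5, 11.0 and 6.11 TPM (log2 -0.81 ± 0.24, limma adjusted p = 0.0662, and -0.53 without it). DERL3 had 9.66, 9.35 and 9.54 against 7.81, 7.31 and 2.44 TPM (log2 -0.74 ± 0.36, limma adjusted p = 0.203, and -0.30 without it). All 3 were lower than LV5 in each of the other two LV5-NID1 libraries as well. Without replicate 3, 13 genes were lower, the 8 above with DERL1, DERL3, DNAJB11, SDF2L1 and SEC61B, and CLGN was higher. Of all genes, 13.1% were then called lower and 8.38% higher. The transcript GC content of SDF2L1 is 66.2%, that of DERL3 60.9% and that of SEC61B 48.6%, against a median of 48.6% over the 34 genes. CLGN, CALR and PDIA4 were the only calls that held under every alternative. CALR and PDIA4 were the only genes called lower when any 1 LV5 library or LV5-NID1 replicate 2 was left out, and CRELD2 and PPIB joined them without LV5-NID1 replicate 1.

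**Figure D4:**
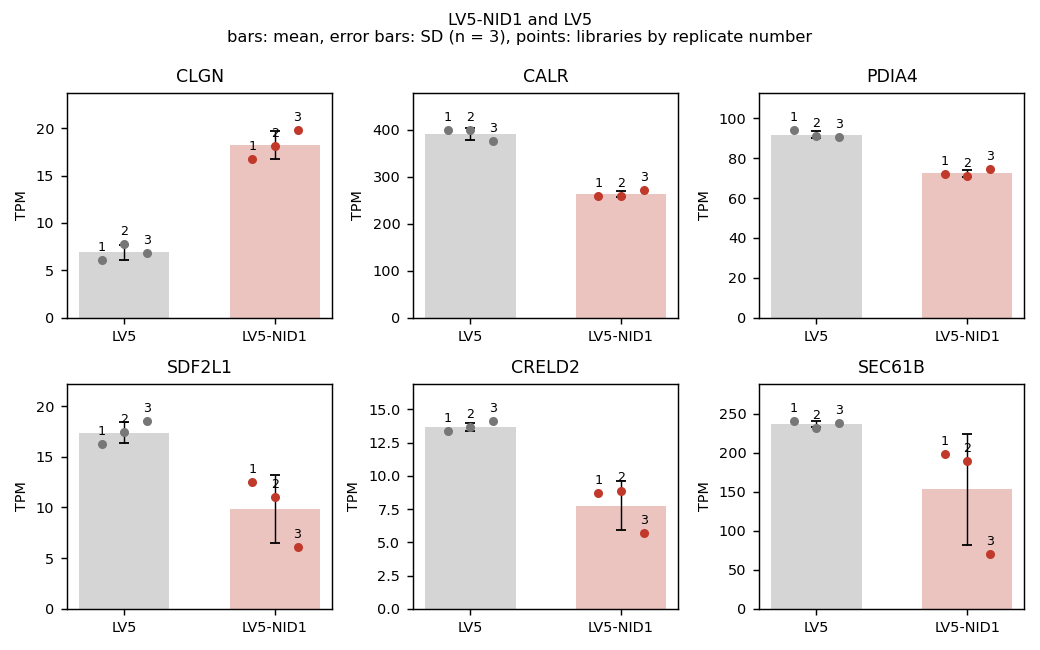
TPM of CLGN, CALR, PDIA4, SDF2L1, CRELD2 and SEC61B in LV5 (grey) and LV5-NID1 (red); bars are means of 3 libraries, error bars SD, and points single libraries with their replicate number. The LV5 and LV5-NID1 libraries are separate for each gene shown, and SDF2L1, CRELD2 and SEC61B in LV5-NID1 are drawn down further by replicate 3, at 6.11, 5.68 and 70.6 TPM.

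Of the 87 other pathway genes 83 were tested in the LV5 comparison, with 3 higher (3.61%), 10 lower (12.0%) and a median of -0.07. Over all genes tested, 7.27% were called higher and 9.32% lower, with a median of 0.01. The PERK and ATF4 branch had 0 higher and 2 lower of 10 (1 and 4 at an unadjusted p under 0.05, limma), with ATF3, a stress-induced transcription factor, at 36.0 ± 4.5 and 26.3 ± 1.89 TPM. In the translocon and N-glycosylation list 3 of 22 were lower and 0 higher (4 and 0 at an unadjusted p under 0.05, limma), led by SEC61G from 930.8 ± 49.3 to 641.9 ± 38.7 TPM. Of 23 disulfide and folding factors 1 was called, UGGT2, a glucosyltransferase that tags unfolded glycoproteins, which rose from 12.4 ± 1.12 to 16.6 ± 1.1 TPM. Of 28 genes of degradation and sensor processing 2 were higher and 5 lower. Among them, EDEM3 rose from 9.19 ± 0.36 to 12.4 ± 1.13 TPM and EDEM2 fell from 22.3 ± 0.552 to 14.2 ± 0.872 TPM (log2 -0.61 ± 0.07, limma adjusted p = 0.00432).

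Side by side, 3 of the 34 genes were called in all 3 comparisons, 16 in 2 and 15 in 1. Over all genes tested, 43.9% were called higher and 43.9% lower in SW480-LM3. The shares were 17.8% and 24.6% in LX-2 cells and 7.27% and 9.32% in LV5-NID1. How often genes outside the list were called in several comparisons was not counted. The comparisons share no libraries, and differences between them were not tested. CALR was the 1 gene called in the same direction in all 3, with log2 differences of -0.13 in SW480-LM3, -0.19 in LX-2 cells and -0.57 in LV5-NID1, the first of which changes sign with scaling. PDIA4 was 0.99 in SW480-LM3, -0.69 in LX-2 cells and -0.34 in LV5-NID1. PPIB was -1.01, 0.13 and -0.35 in the same order. ERN1, DNAJC3 and HERPUD1 were called higher in both SW480-LM3 and LX-2 cells. XBP1, DNAJB9, ERP44, DERL2 and SEC61B were lower in SW480-LM3 and higher in LX-2 cells. PDIA3, P4HB and CRELD2 were higher in SW480-LM3 and lower in LV5-NID1, while CLGN was lower in SW480-LM3 (-1.41) and higher in LV5-NID1 (1.29). HSPA5 and PDIA6 were lower in both SW480 comparisons. Many of the calls set side by side here did not hold under every alternative. In SW480-LM3 these were CALR, HSPA5, XBP1, DNAJC3 and CRELD2, and in LX-2 cells CALR, HERPUD1, ERP44 and PPIB. In LV5-NID1 they were HSPA5, PDIA3, PDIA6, P4HB, PPIB and CRELD2.

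**Figure D5:**
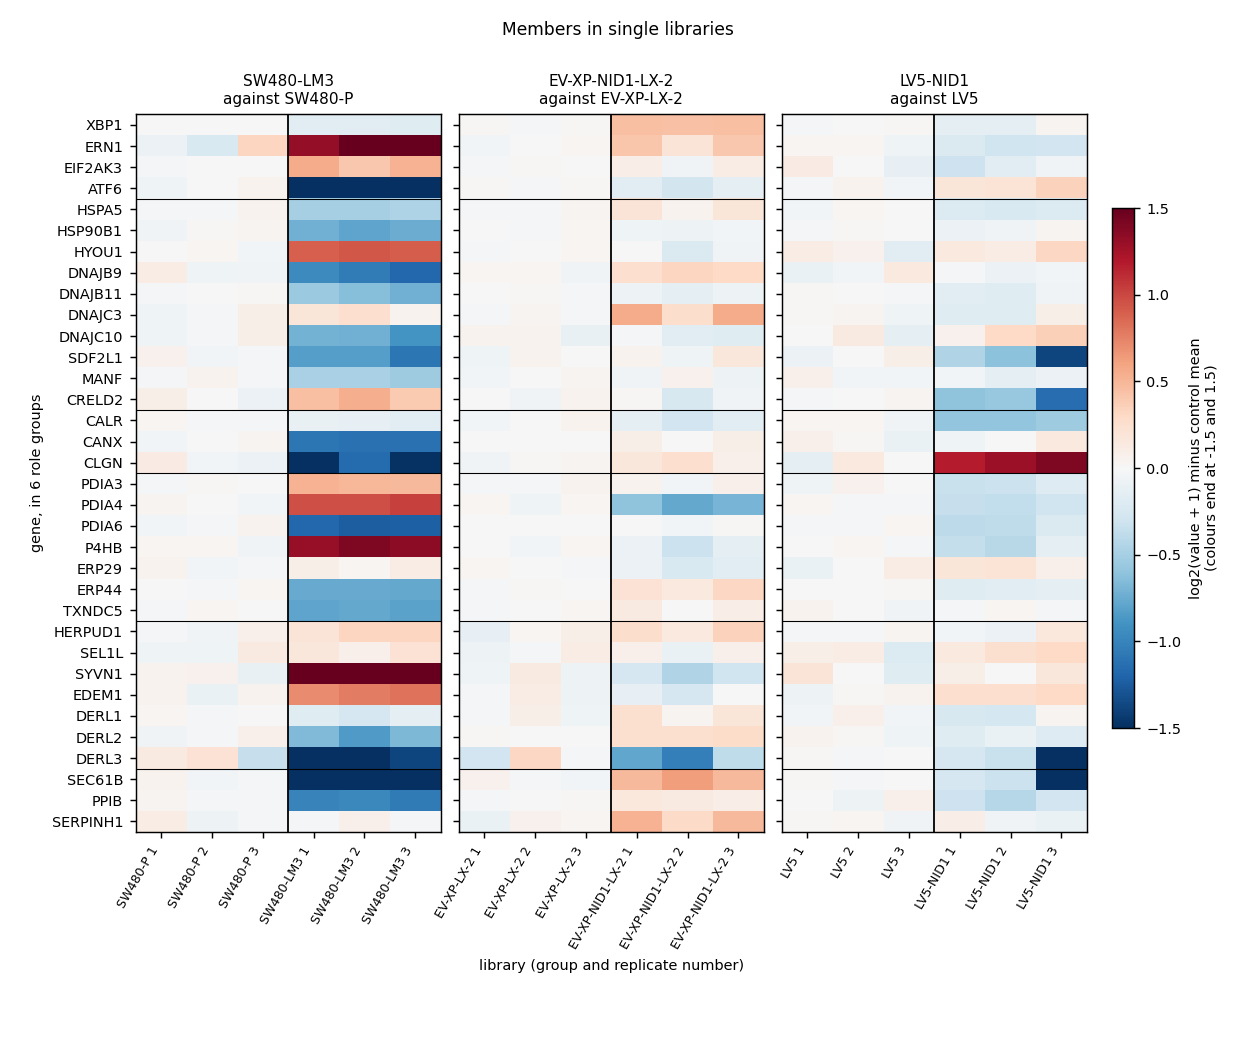
Each of the 34 genes in each of the 18 libraries, as log2 of the value plus 1 minus the mean of the control group of the same table; red is above and blue below that mean, with colours ending at -1.5 and 1.5. Replicates of a group share their colour for most genes, and among the LV5 and LV5-NID1 libraries LV5-NID1 replicate 3 is the darkest for SDF2L1, CRELD2, DERL3 and SEC61B.

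The 10 genes with an ERSE or ERSE-II match did not move as 1 block. In SW480-LM3 3 were higher and 7 lower, from -1.21 (PDIA6) to 0.91 (HYOU1), with a median of -0.32. Of the 21 genes whose window holds neither element, 8 were higher and 11 lower, with a median of -0.50. Over all genes tested there, 43.9% were called higher and 43.9% lower. Among the 10 genes with a match, the calls of HSPA5, HSP90B1, CALR, CRELD2 and XBP1 did not hold under every alternative. In LX-2 cells 2 genes with a match were higher, XBP1 and HERPUD1, and CALR was lower. Of the 21 without a match, 8 were higher and 3 lower. The medians were 0.02 with and 0.05 without a match, and 17.8% of all genes were called higher and 24.6% lower. Of the calls with a match, only that of XBP1 held under every alternative. In LV5-NID1 0 with a match were higher, also at an unadjusted p by limma, and 4 lower, namely HSPA5, CALR, PDIA6 and CRELD2. Of these 4, only CALR held under every alternative. Without a match 2 of 21 were higher and 3 lower. The medians were -0.14 with and -0.09 without a match, and 7.27% of all genes were called higher and 9.32% lower. HSP90B1, which carries 2 ERSE matches, had log2 differences of -0.75, -0.06 and -0.03, and HSPA5, with 1 match, -0.48, 0.14 and -0.21. HYOU1, with a pair of ERSE-II matches, had 0.91, -0.09 and 0.19.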

How the data were processed

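Poly(A) RNA was sequenced in 18 libraries of cultured cells, 6 groups of 3, and the 3 gene tables the authors deposited were analysed separately. The submitters' processing notes name HISAT2 2.1.0 and Bowtie2 2.3.5; the counter, genome build and gene models are not given in these sources. For SW480-LM3 and SW480-P the authors deposited a signal whose steps are whole reads over a factor of each library: 100% of the values gave whole reads to within 0.05 read. The other tables hold TPM values that the authors deposited, with 1000000 per library and unknown depth.

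Values were compared with limma 3.58.1 in R 4.3.3 with a variance trend on log2(value + 1), which understates changes of low genes, for genes reaching 1 in at least 3 libraries. Benjamini-Hochberg adjustment ran over the genes of a table that passed this filter, and a two-sided adjusted p under 0.05 was a call. The method was tested on simulated data. On the recovered reads, edgeR 4.0.16 called 6309 genes higher and 6378 lower, and DESeq2 1.42.0 called 6116 and 6270. GC content came from GENCODE 29 transcripts and promoter windows from RefSeq GRCh38.p14. The 34 genes, the 87 further pathway genes and the marker lists were chosen with earlier results of these data known. All 34 are named; of the further genes, the largest called rise and fall of each sublist with a mean of at least 5 in the higher group are named, with NID1. Alternatives were other scalings, pseudocounts, filters and tools, and leaving out each library.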

Additional observations from a re-analysis of the deposited data

How the results depend on the processing

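In SW480-LM3, 24 of 32 calls among the 34 genes kept their direction and call under every alternative run; HSPA5, HSP90B1, CALR, DNAJC3, CRELD2, XBP1, SEL1L and DERL1 did not. In LX-2 cells 8 of 14 did, and in LV5-NID1 3 of 10. The cause of the changes was not tested. In LX-2 cells the count of the 34 genes called lower (4) was 8 after quantile normalization, 2 with no low filter, 7 without mitochondrial genes, and 1 to 5 when single libraries were left out. In LV5-NID1 the count higher (2) was 1 with no low filter, without mitochondrial genes, with median-ratio scaling and without any single library, and the count lower (8) was 4 after quantile normalization, 5 with no low filter and 2 to 13 without single libraries. Of the further pathway genes in LV5-NID1, the higher count (3) was 0 with no low filter and 0 to 4 without single libraries, and the lower count (10) was 6 after quantile normalization, 19 with the GC trend removed and 3 to 20 without single libraries. Over all genes of that table, 521 were higher with no low filter (1127 in the main test), and 185 to 1299 higher and 494 to 2026 lower (1445) without single libraries. The removal of the GC trend was chosen after seeing the data. With the replicate number as a block, LV5-NID1 gave 1 of the 34 genes higher and 4 lower, 0 and 3 of the further genes, and 233 and 657 of all genes. Whether the numbers pair the samples is not stated. Same-numbered libraries deviated together with r of only -0.047 to 0.063 across genes, and a low r cannot show that they were unpaired.

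Log2 differences that changed sign were mostly near 0. In SW480-LM3, quantile normalization gave HSPA5 0.03, HSP90B1 0.10 and CALR 0.38, library-total scaling gave CALR 0.16, XBP1 0.12 and DERL1 0.09, and removal of the GC trend gave ERP29 -0.04, CRELD2 -0.08, DERL1 0.05 and SERPINH1 -0.61. SERPINH1 was -0.02 to -0.01 without replicate 2 of SW480-P or SW480-LM3. It was called lower with the GC trend removed and higher with library-total scaling. ERP29 was called higher after quantile normalization and with library-total scaling. In LX-2 cells quantile normalization gave CANX -0.06, PDIA3 -0.11 and PPIB -0.02, exclusion of mitochondrial genes PDIA3 -0.01 and SEL1L -0.02, median-ratio scaling PDIA6 0.06 and MANF 0.04, and removal of the GC trend MANF 0.03, CRELD2 0.08, HYOU1 0.03 and SEL1L -0.01. PDIA6 was 0.01 without EV-XP-NID1-LX-2 replicate 2, and SEL1L was -0.03 without EV-XP-LX-2 replicate 1, -0.02 without EV-XP-NID1-LX-2 replicate 1 and -0.01 without its replicate 3. In LV5-NID1 quantile normalization gave HSP90B1 0.07, XBP1 0.01, TXNDC5 0.07 and SERPINH1 0.08, removal of the GC trend CANX -0.01, HERPUD1 -0.02 and SERPINH1 0.31, and exclusion of mitochondrial genes HERPUD1 -0.01. Without LV5-NID1 replicate 3, CANX was -0.03, HERPUD1 -0.07 and SERPINH1 0.02. Without LV5 replicate 3, CANX was -0.02 and DNAJB9 0.02, and without LV5 replicate 1 TXNDC5 was 0.02. Depth limits the low values of the SW480 table, such as DERL3 and CLGN, and is unknown for the TPM tables.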
